A study of Homo sapiens with 3 samples.

Results

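The mRNAs of 10 basement membrane genes were followed in RNA precipitated with the Flag-tagged RNA-binding protein MEX3A and in an IgG precipitate. The 10 genes are COL4A1, COL4A2, COL4A5, LAMA5, LAMB1, LAMB2, LAMC1, NID1, HSPG2 and AGRN, out of 57820 listed genes. They were selected by name with their Flag against IgG ratios of these data already known, so those ratios are given as a description. All 10 reached 20 counts, summed over both libraries, as did 10811 genes in all. Both libraries came from the established renal cell carcinoma line ACHN, which stably over-expressed MEX3A-Flag, so the IgG control carries the same transgene. Per the labels' protocols, all samples were cross-linked with 0.3% formaldehyde, a reaction ended with 0.125 M glycine. In RNA immunoprecipitation an antibody pulls down a protein with the RNA bound to it, and IgG, which has no target in the cell, gives the background. Neither the promoter of the transgene nor whether the line is 1 clone is given in the sources used here. Input RNA was not analysed here, and every value sets 1 precipitate against the other and not against the level in the cell. With 1 library per antibody, no difference has a replicate check and no p-value was computed.

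The basement membrane is the thin sheet of matrix on which epithelial cells rest. Laminin trimers of an alpha, a beta and a gamma chain form 1 network beneath the cell and trimers of collagen IV chains form another, while nidogen and the heparan sulfate proteoglycans perlecan and agrin tie the networks together. In the kidney this sheet underlies the tubules and forms part of the glomerular filter. Collagen IV genes lie head to head in pairs and are transcribed in opposite directions from a shared promoter region, and COL4A1 and COL4A2, whose chains make up the common trimer, are 1 such pair.

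That shared region is shown because COL4A1 and COL4A2 differed in their Flag against IgG ratios (8.77 and 1.02). It was not the widest difference within the group. By counts, COL4A1 lay farther still from LAMA5, LAMB2, HSPG2 and AGRN, whose ratios were below that of COL4A2. RefSeq (GRCh38.p14) places 126 bases between their starts on chromosome 13, at chr13:110307158-110307283, given here on the plus strand, which is the COL4A2 strand. The capitals mark a CCAAT box, the kind of site that NF-Y binds, and a GC box with the letters GGGCGG, the kind of site that Sp1 binds.

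COL4A1-COL4A2 shared window: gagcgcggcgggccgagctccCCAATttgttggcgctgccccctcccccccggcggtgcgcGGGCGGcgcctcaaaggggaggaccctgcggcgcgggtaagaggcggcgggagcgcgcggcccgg

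Read from the left, COL4A1 starts just before the first base on the minus strand and COL4A2 just after the last base. Both strands were searched for these motifs and for the letters TATAA of a TATA box. The CCAAT box was found 1 time, at bases 22 to 26, and the GC box 1 time, at bases 62 to 67, without overlap. Of 35116 windows of 126 bases before RefSeq gene starts, 21.1% held the CCAAT box, 34.6% the GC box and 10.6% the TATA box letters, which had no match here. G and C made up 80.2% of the 126 bases. The matches are a description of the letters, and transcription from this window was not measured.

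Total counts were 5498124 with Flag and 3412864 with IgG, so the Flag library was the deeper one. How precise a gene's value is depends on its own counts in each library. Of 11 renal epithelial markers 10 entered, with summed levels of 706.2 CPM with IgG and 1003 with Flag. PAX8 had the most counts, 1049 with IgG and 2532 with Flag, and KRT8 had 602 and 765, but CDH1 had 8 and 19, CA12 had 17 and 33, and CDH6 was at 0 in both libraries. Of other cell types that build basement membrane, the endothelial genes CDH5, KDR, TEK, TIE1 and CLDN5 had 0 counts in both libraries and VWF had 0 and 9, and the fibroblast genes DCN, LUM and COL3A1 had 0 in both, although COL1A1 had 637 and 875. All 5 leukocyte markers were at 0. Mitochondrially encoded RNA took 33.0% of Flag and 8.93% of IgG counts, and its part in the ratios was not tested beyond the scalings given here.

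The share of each library that fell to the 10 genes was 0.770% (exact 95% binomial interval 0.762 to 0.777) with Flag and 0.304% (0.298 to 0.310) with IgG. COL4A1 alone supplied 62.3% (61.8 to 62.7) of the group's Flag counts and 18.0% (17.3 to 18.7) of its IgG counts. Reads that carry no molecular identifier need not be independent molecules, so this and all other intervals cover counting error only. Without COL4A1 the other 9 genes summed to 2494 CPM, which is counts scaled to the library total, in the IgG library and 2906 CPM in the Flag library.

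For each gene, the Flag CPM was divided by the IgG CPM, with an exact 95% interval from the 2 counts. A gene counted as enriched where the interval lay wholly above 2 and depleted where it lay wholly below 0.5. Of the 10 genes, 4 were enriched (COL4A1, COL4A5, LAMC1 and NID1) and 0 depleted. Among all 10811 genes 28.7% were enriched and 1.32% depleted, and since these values chose the group, nothing is read from the difference. The other 6 were COL4A2, LAMA5, LAMB1, LAMB2, HSPG2 and AGRN. The group's median log2 ratio was 0.37, against 0.95 over all genes tested, and it was 0.03 without COL4A1.

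Where a ratio of 1 lies depends on how the libraries are scaled. TMM scaling, which sets the bulk of genes to equal levels, lowered every log2 ratio by the same amount (a shift of -0.78), and calls then went to 12.0% of all genes as enriched and 6.12% as depleted. With it COL4A1 stayed enriched at 5.11 (4.88 to 5.36), AGRN was depleted at 0.403 (0.381 to 0.426), and the other 8 genes had no call. The order of the genes and their place relative to the median gene are the same under any such scaling. The median gene had a ratio of 1.93 with total counts, so the 4 enriched genes lay above it by construction. The other 6 lay below it.

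**Figure D1:**
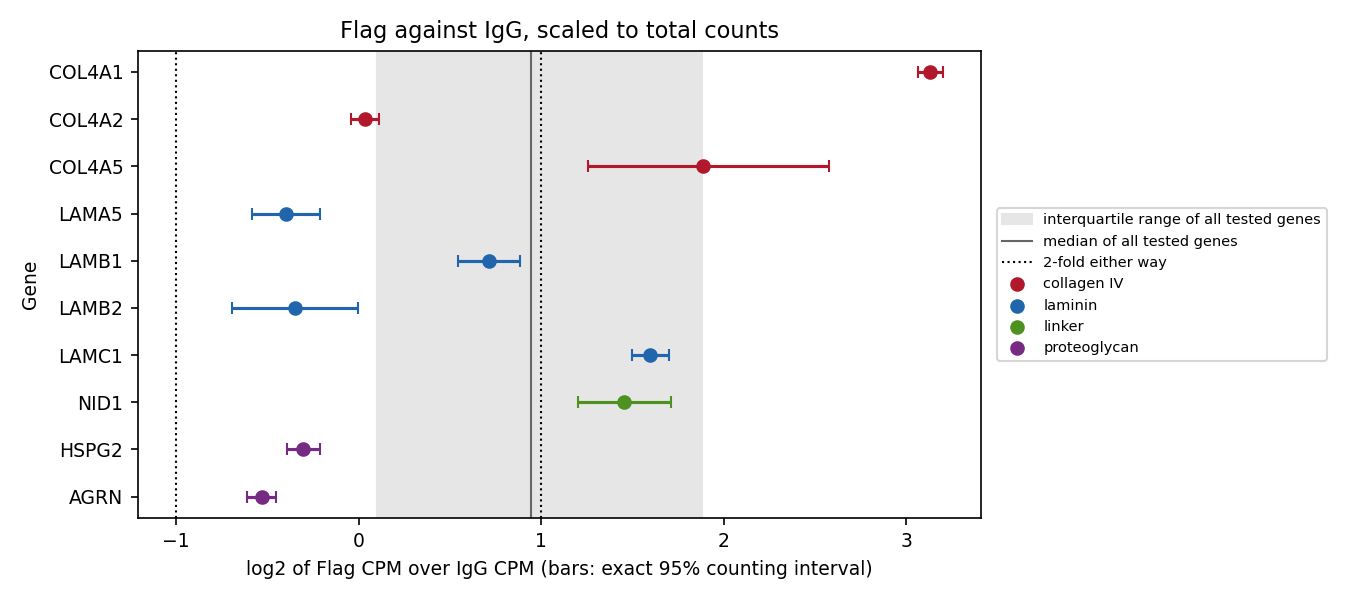
The log2 ratio of Flag CPM to IgG CPM is plotted for each of the 10 genes (points, coloured by role), with exact 95% counting intervals as bars, 1 library per antibody. COL4A1 at 3.13 stands to the right of the shaded interquartile range of all genes tested (0.10 to 1.88), and COL4A5 at 1.89 at its right edge, whereas COL4A2 at 0.03, LAMA5, LAMB2, HSPG2 and AGRN lie to its left.

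COL4A1 encodes the alpha 1 chain of collagen IV. It had 1866 counts (547 CPM) in the IgG library and 26349 counts (4792 CPM) in the Flag library, a ratio of 8.77 (8.36 to 9.19). It ranked 99 by count among all genes with IgG and 17 with Flag, where it took 0.479% of all counts. Its ratio ranked 670 among the 10811 genes. Among the 658 genes whose counts summed to at least 1000, 72 had a ratio at least as high, COL4A1 included. The mRNA was thus abundant in both precipitates and higher with Flag, but many genes had higher ratios.

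COL4A2 encodes the alpha 2 chain, which joins the alpha 1 chain in the same trimer. It had 2326 counts (682 CPM) with IgG and 3837 counts (698 CPM) with Flag. The ratio was 1.02 (0.972 to 1.08), at percentile 23.1 of all genes. In the IgG library COL4A2 had more counts than COL4A1, and in the Flag library it had far fewer. Not scaled by length, COL4A1 made up 44.5% (43.0 to 46.0) of the counts of the pair with IgG and 87.3% (86.9 to 87.7) with Flag.

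The ratio of COL4A1 was therefore 8.56 times that of COL4A2 (exact conditional interval 7.98 to 9.18), a value from which the scaling of the libraries cancels and which compares these 2 libraries only. On the per-length scale of the deposited TPM the level of COL4A1 was 0.633 of the COL4A2 level with IgG and 4.28 times it with Flag, which is a 6.76-fold difference. By construction the estimates from counts and TPM differ by the effective lengths listed in each library. For COL4A2 the length was 4840 bases with IgG and 3945 with Flag. For COL4A1 it was 6131 and 6325 bases. This length is an average over a gene's transcripts, weighted by their estimated abundance in that library. The files hold no transcript values, so which COL4A2 transcripts differed was not tested. The antisense genes COL4A2-AS1 and COL4A2-AS2 were listed at 0 counts in both libraries.

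COL4A5 encodes the alpha 5 chain, which is changed in X-linked Alport syndrome. With 24 counts in the IgG library and 143 in the Flag library it was the least abundant of the 10. Its ratio of 3.70 has a wide interval (2.39 to 5.96), and the TMM ratio of 2.16 (1.39 to 3.48) had no call. It lay 3.61 times (2.32 to 5.84) above the ratio of COL4A2 and below that of COL4A1, whose ratio was 2.37 times as high (1.47 to 3.68). With TPM the distance from COL4A2 was 1.95-fold, as the effective length of COL4A5 went from 2216 bases with IgG to 3349 with Flag.

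The remaining collagen IV chains were near the limit of detection in the IgG library. COL4A3, which pairs head to head with COL4A4, had 1 IgG and 14 Flag counts and did not enter. COL4A4 had 0 IgG and 35 Flag counts, a ratio of 7.24 against the floor of 3 IgG counts, with a lower interval bound of 5.585. It entered through its Flag counts alone, so nothing is read from its call. COL4A6, the head-to-head partner of COL4A5, had 1 and 6 counts. The ratios of COL4A5 and COL4A6 could not be told apart at this depth, since one was 0.993 times the other with an interval from 0.0207 to 8.77.

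**Figure D2:**
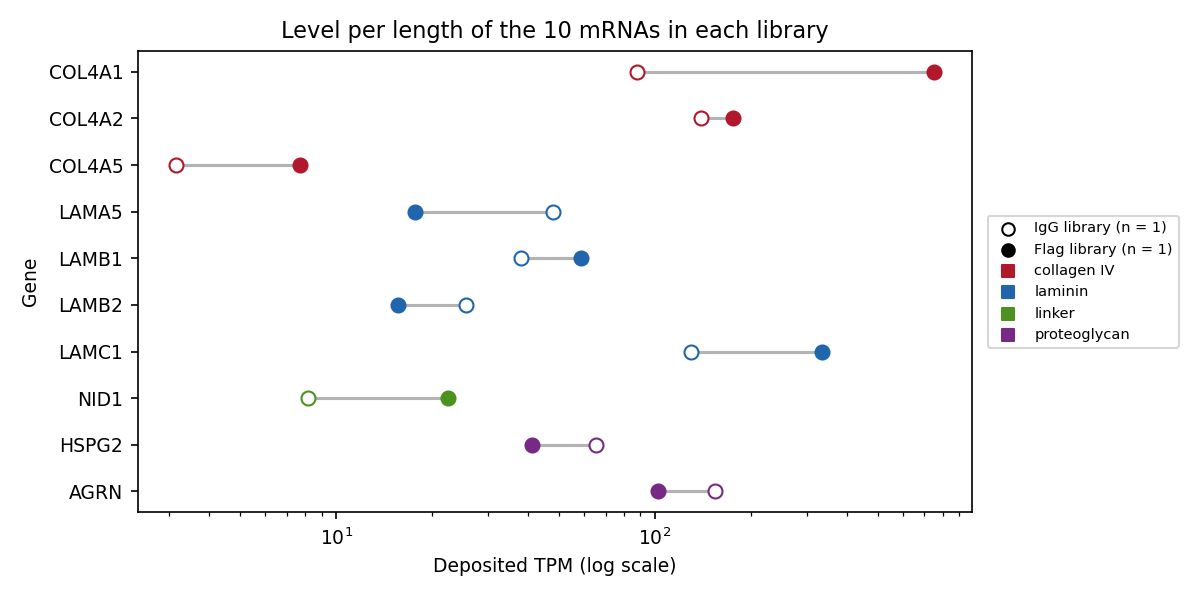
The deposited TPM, a level per transcript length, is plotted on a log axis for each gene in the IgG library (open circles) and the Flag library (filled circles). COL4A1 moves from 88.2 to 751 TPM while COL4A2 stays between 139 and 175, and the filled circle lies to the left of the open one for LAMA5, LAMB2, HSPG2 and AGRN.

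Laminin chains that can assemble into 1 trimer did not all have like ratios, though by counts LAMA5 and LAMB2 did not differ beyond counting error. LAMC1 encodes the gamma 1 chain, shared by most laminins of the kidney. It had 960 counts with IgG and 4680 with Flag, a ratio of 3.03 (2.82 to 3.25), which was 1.76 (1.65 to 1.89) and not called with TMM scaling. Its share of the counts of the 4 laminin genes was 49.97% (47.7 to 52.2) with IgG and 72.9% (71.8 to 74.0) with Flag.

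LAMB1 encodes the beta 1 chain that partners gamma 1 in many epithelia. The counts were 392 with IgG and 1036 with Flag. The ratio was 1.64 (1.46 to 1.85) with total counts but 0.957 (0.851 to 1.08) with TMM scaling, so its side of 1 depends on the scaling. LAMB2 encodes the beta 2 chain, the form of the mature glomerular filter. It had 128 and 162 counts and a ratio of 0.786 (0.619 to 0.998). The ratio of LAMB1 was 2.09 times (1.60 to 2.73) that of LAMB2, and per length the LAMB1 level was 1.48 times the LAMB2 level with IgG and 3.73 times with Flag. The 2 beta chains thus differed beyond counting error, independent of scaling.

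LAMA5 encodes the alpha 5 chain, the main alpha chain of mature epithelial basement membranes. It had 441 counts with IgG and 539 with Flag, a ratio of 0.759 (0.668 to 0.862), which was 1.00 with totals of protein-coding genes. In TPM it went from 47.9 to 17.6, a ratio of 0.370 that is past the depletion threshold, though TPM gives no interval. The listed effective length of LAMA5 was 2670 bases with IgG and 5503 with Flag, 2.06 times as long, whereas the median over 10065 tested genes with several transcripts was 1.02 and the 95th percentile 2.45. How much of the TPM ratio rests on the assignment of reads to LAMA5 transcripts was not tested.

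Set against each other, the ratio of LAMC1 was 1.85 times (1.61 to 2.12) that of LAMB1, 3.85 times (2.998 to 4.94) that of LAMB2 and 3.99 times (3.44 to 4.62) that of LAMA5. LAMB1 in turn was 2.16 times (1.81 to 2.58) LAMA5. LAMA5 and LAMB2 did not differ beyond counting error, at 0.966 times (0.735 to 1.27), but at 0.603 times with TPM. The order of laminin ratios from counts was therefore LAMC1, LAMB1 and then LAMB2 with LAMA5.

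**Figure D3:**
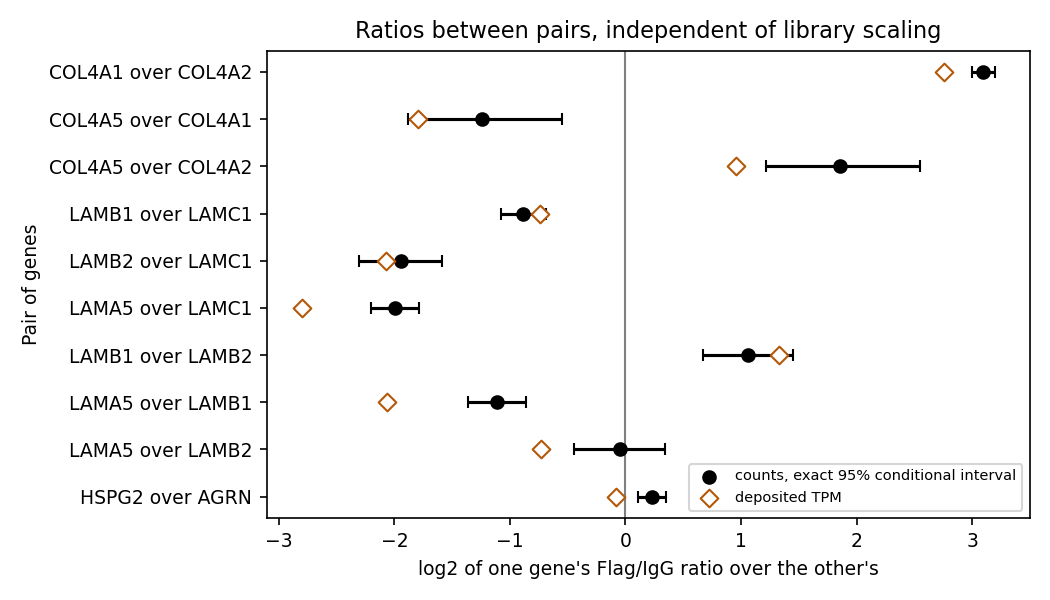
For the 10 pairs compared, the Flag over IgG ratio of the first gene is divided by that of the second and plotted as log2. Black points are from counts with exact 95% conditional intervals and open diamonds are from the deposited TPM, with no interval. COL4A1 over COL4A2 lies farthest to the right by both, and HSPG2 over AGRN changes side between counts and TPM.

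Of the other laminin chains, LAMA3 and LAMB3, which encode an alpha and a beta chain of epithelial basement membranes, were not called. LAMA3 had 169 and 370 counts and a ratio of 1.36 (1.13 to 1.64), and LAMB3 had 13 and 26 counts and a ratio of 1.24 (0.615 to 2.63). LAMA1 at 1.64 (0.794 to 3.63) and LAMA2 at 0.897 (0.355 to 2.38) had few counts and were not called. LAMB4, LAMA4 and LAMC3 had 0 to 7 counts in each library and did not enter.

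NID1 encodes nidogen 1, which links laminin to collagen IV. It had 160 counts with IgG and 706 with Flag, a ratio of 2.74 (2.30 to 3.27), or 1.60 (1.34 to 1.91) with TMM scaling, where the call was lost. Its effective length was 5673 and 5678 bases, and the TPM ratio of 2.72 was nearly that from counts. NID2, which encodes the related nidogen 2, had 32 and 48 counts and a ratio of 0.931 (0.583 to 1.505).

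The proteoglycan genes both lay below the median gene. HSPG2 encodes perlecan. Its estimated counts of 1726.59 with IgG and 2254 with Flag were the only fractional ones in the group, so part of its reads was divided with other genes. The ratio was 0.810 (0.761 to 0.863), or 1.07 with totals of protein-coding genes. AGRN encodes agrin. It had 2352 counts with IgG, the most of the 10, and 2620 with Flag. Its ratio of 0.692 (0.654 to 0.731) was the lowest of the group by counts, at percentile 10.3 of all genes. By TPM its ratio of 0.666 was above those of LAMA5 (0.370), LAMB2 (0.613) and HSPG2 (0.629).

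HSPG2 lay 1.17 times (1.08 to 1.27) above AGRN by counts and at 0.943 times AGRN by TPM. The effective length of HSPG2 was 1.29 times as long with Flag as with IgG, and that of AGRN 1.04 times. The difference between these genes was small on both scales and changed sides, so no order is given for them.

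**Figure D4:**
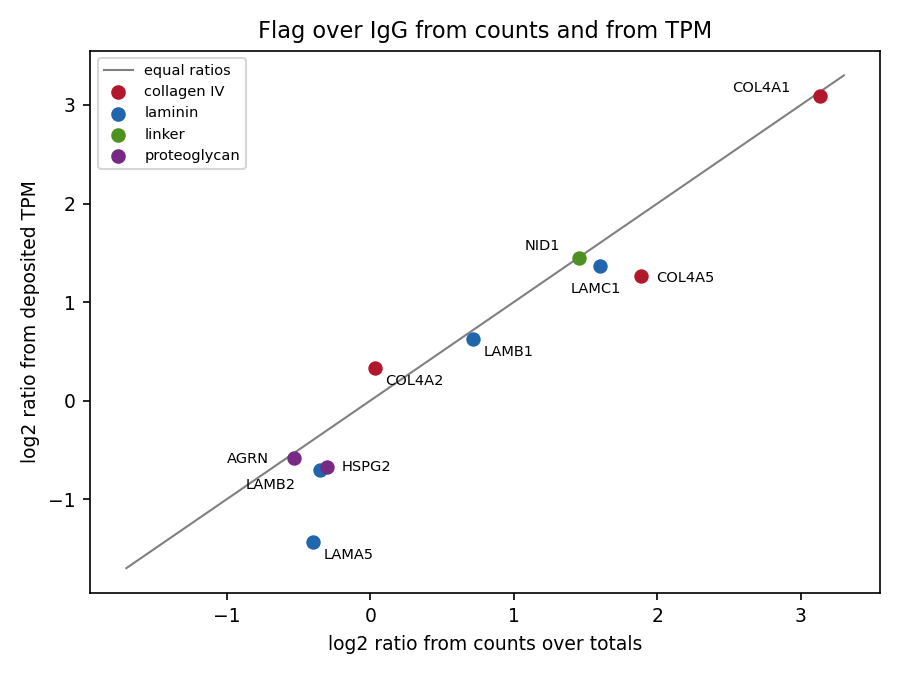
Each gene's log2 ratio of Flag over IgG from counts scaled to totals (horizontal) is plotted against that from the deposited TPM (vertical), and the line marks equal ratios. LAMA5 lies farthest below the line, COL4A5 also lies below it, and COL4A2 lies above it.

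Per length, the order of the levels differed between the precipitates. In the IgG library AGRN came first at 154 TPM, then COL4A2 at 139, LAMC1 at 130 and COL4A1 at 88.2. In the Flag library COL4A1 came first at 751 TPM, then LAMC1 at 334, COL4A2 at 175 and AGRN at 103. COL4A5 was lowest in both, at 3.14 and 7.69 TPM. NID1 went from 8.17 to 22.4 TPM, and LAMB2 from 25.6 to 15.7. HSPG2 went from 65.3 to 41.0 and LAMB1 from 38.0 to 58.4.

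**Figure D5:**
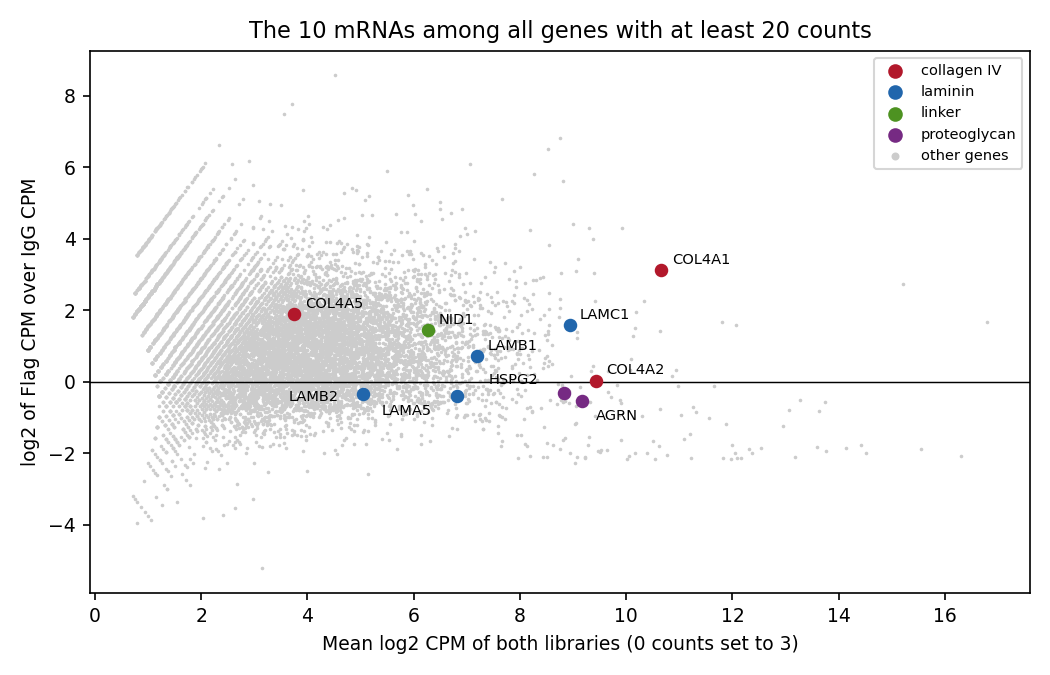
All genes with at least 20 counts (grey) are plotted by their mean log2 CPM over both libraries and their log2 ratio of Flag CPM over IgG CPM, with the 10 basement membrane genes in colour. COL4A1 is the rightmost of the 10 and has the highest ratio of them, at a mean log2 CPM of 10.7, while COL4A2 (9.43), AGRN (9.16) and HSPG2 (8.83) lie farther left, near or below a log2 ratio of 0.

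The protein-coding genes nearest to COL4A1 in log2 TPM of both libraries were CAST, which encodes the calpain inhibitor calpastatin, at a distance of 0.146, and then RPL24 (0.612) and EIF4G1 (0.656). CAST had 97.4 TPM with IgG and 765 with Flag. Nearest to COL4A2 were CD44 (0.0226) and RPL23A (0.0659). CD44, a hyaluronan receptor gene, had 139 TPM with IgG and 178 with Flag. Likeness over 2 libraries describes these levels only.

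Genes that surround the basement membrane were taken from 6 lists of other chains, other matrix proteins, collagen folding and export, receptors, proteases with their inhibitors, and interstitial collagens. Of 62 that entered, 22 were enriched and 1 depleted, against 28.7% and 1.32% of all genes, and the median log2 ratio was 0.71, against 0.95 for all genes. With TMM scaling 14 were enriched and 2 depleted, against 12.0% and 6.12% of all genes. Some entered through their Flag counts alone, so these counts describe the lists and nothing particular to a list is read from them.

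Other proteins of the sheet had 2 enriched of 8 that entered and 0 depleted (28.7% and 1.32% of all genes), with a median log2 ratio of 0.57. TINAGL1, which encodes a matrix protein related to the tubulointerstitial nephritis antigen, had 111 IgG and 2273 Flag counts, a ratio of 12.7 (10.5 to 15.5). SPARC, chosen after its value was seen, encodes a collagen-binding protein and was the other enriched gene, at 2.31 (2.06 to 2.60). COL7A1, of the anchoring fibrils, had 1380 and 1234 counts and the lowest upper bound, with a ratio of 0.555 (0.514 to 0.600), depleted with TMM scaling.

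Genes of collagen folding, modification and export had 2 enriched and 1 depleted of 16 (28.7% and 1.32% of all genes), and a median of 0.13. PLOD2, a lysyl hydroxylase gene, was enriched at 6.05 (4.17 to 9.06), from 31 and 302 counts. LOXL2, a lysyl oxidase gene whose product cross-links collagen IV and which was chosen after its value was seen, was enriched at 3.93 (3.52 to 4.38). MIA3 encodes TANGO1, which loads collagen into export carriers, and was depleted, from 3816 IgG counts to 1441 Flag counts, a ratio of 0.234 (0.220 to 0.249).

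Receptors had 5 enriched of 13 and 0 depleted (28.7% and 1.32% of all genes), with a median of 0.90, near that of all genes. ITGA1, a collagen-binding integrin gene, had 3 and 161 counts and a ratio of 33.3 (11.2 to 163.2), with fractional counts. It passed the filter through its Flag counts, with its IgG count at the floor, so nothing is read from its call. ITGA3, which encodes a laminin-binding integrin subunit, had 2256 and 3611 counts and a ratio of 0.994 (0.942 to 1.05). Proteases and inhibitors had 8 enriched of 11 and 0 depleted (28.7% and 1.32% of all genes), with a median of 2.17. With TMM scaling 5 were enriched, against 12.0% of all genes. TIMP2, an inhibitor of matrix metalloproteinases, had 229 and 7061 counts and a ratio of 19.1 (16.8 to 21.9), with fractional counts. PLAU, which encodes urokinase, had a ratio of 1.37 (1.23 to 1.52). MMP2, MMP7, MMP9 and TIMP3 were at 0 in each library, and a count of 0 allows levels up to 0.879 CPM with IgG and 0.546 CPM with Flag.

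Interstitial collagens had 3 enriched of 7 and 0 depleted (28.7% and 1.32% of all genes), with a median of 0.86. COL6A3, chosen after its value was seen, was 1 of the 3, but had 0 IgG and 21 Flag counts, entered through the Flag library alone and was not called with TMM scaling. COL27A1 had the highest lower bound, from 409 and 3331 counts, with a ratio of 5.06 (4.56 to 5.62). COL6A2, which encodes a chain of the microfibrillar collagen VI, had 217 and 270 counts and a ratio of 0.772 (0.644 to 0.928). As among the collagen IV genes, collagen mRNAs here spread over both sides of the median gene.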

How the data were processed

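The 10 members and all lists were chosen with earlier results of these data known. Per the file headers, the authors deposited gene tables in RSEM layout with expected counts per gene (not normalized), TPM and FPKM values (scaled by effective length) and the effective lengths. The submitters' processing notes name STAR, RSEM and, as builds, hg19 and GRCh37, with no version or role. The annotation release and the strand setting were not given in those sources, so antisense reads cannot be told apart. Expected counts were rounded to whole numbers and divided by the library totals. A count of 0 was set to a floor of 3 counts per library for the ratio only. Intervals were exact (Clopper-Pearson for ratios, conditional for pairs, scipy 1.17.1). Those for ratios, but not those for pairs, were also run on simulated counts. The simulation held only the independent counting error that the intervals assume, so it is no check against other variation. Genes entered at 20 counts summed over the libraries. TPM ratios used a pseudocount of 0.1 and FPKM served as an alternative. Scaling alternatives used edgeR 4.0.16 and DESeq2 1.42.0. Named genes are the members, the ends of each other list by interval bound, entering collagen IV and laminin chains, and the 3 protein-coding genes nearest to COL4A1 and COL4A2. Of the genes this rule names, 2 are not reported here, and counts over lists were made with all listed genes. RefSeq promoter sequences (GRCh38.p14) matched 9 of the 10 members by symbol, AGRN not. PECAM1 was not matched among the markers, and P3H1, P3H2, P3H3, GLT25D1 and GLT25D2 were matched through their other symbols LEPRE1, LEPREL1, LEPREL2, COLGALT1 and COLGALT2.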

Additional observations from a re-analysis of the deposited data

How the results depend on the processing

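Each result was recomputed under 13 alternatives, or 6 for pairs of genes, where scalings cancel. With TPM and FPKM a call rests on the ratio alone, as these give no interval. COL4A1 was enriched under all 13, with ratios from 5.07 to 11.6, and COL4A2 had no call under any of them (0.592 to 1.35). COL4A5 and NID1 kept their calls under 9 of 13 and LAMC1 under 10 of 13. These numbers are no measure of robustness, as not every alternative could remove an enriched call. The changed count filters left each ratio and interval as it was, and the 1.5-fold threshold is looser than the main one. With TPM and FPKM, COL4A5 was kept on ratios of 2.10 to 2.41 without intervals. Among the other scalings of counts, COL4A5 and NID1 kept their calls only with totals of protein-coding genes. COL4A5, NID1 and LAMC1 all lost their calls with TMM and median-of-ratios scaling and with a 4-fold threshold. COL4A5 and NID1 also lost them with totals that leave out mitochondrial and the 10 most abundant genes. Enriched members numbered 1 with TMM scaling, 1 with median-of-ratios scaling, 2 with those reduced totals and 1 at a 4-fold threshold, against 4. Depleted members numbered 1 with TMM, 3 with median-of-ratios scaling (LAMA5, HSPG2 and AGRN), and 1 (LAMA5) with TPM at a pseudocount of 0.1 or 1 and with FPKM, against 0. The members' median log2 ratio of 0.37 became -0.40 under TMM and -0.42 under median-of-ratios scaling, 0.042 with reduced totals, 0.78 with totals of protein-coding genes (a shift of 0.40) and, in an alternative chosen after seeing the data, 0.034 without COL4A1. These scalings shift all ratios alike by construction.

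LAMB1 passed to the other side of 1 under TMM (0.957) and median-of-ratios scaling (0.949). With totals of protein-coding genes, LAMA5 (1.00), LAMB2 (1.04) and HSPG2 (1.07) did so. The COL4A1 ratio over the COL4A2 ratio was 8.56 and became 6.76 with TPM or FPKM at a pseudocount of 0.1, 6.71 at 1 and 6.76 with counts over effective length. HSPG2 over AGRN changed side, at 0.944 with TPM or FPKM at 0.1, 0.949 with TPM at 1 and 0.943 with counts over effective length. Here the listed lengths, which differ between the libraries, are what the alternative changes.

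Of all genes, 1293 were enriched with TMM, 1269 with median-of-ratios scaling, 4780 with TPM and 4774 with FPKM at a pseudocount of 0.1, and 924 at 4-fold, against 3100. Depleted genes numbered 662 with TMM, 675 with median-of-ratios scaling, 268 with reduced totals, 86 with totals of protein-coding genes, 218 with no filter, 712 and 536 with TPM at 0.1 and 1, 713 with FPKM, 298 at 1.5-fold and 24 at 4-fold, against 143. The TPM and FPKM numbers rest on ratios without intervals, so they follow another rule than the 3100 and the 143. The other basement membrane lists had 14 enriched with TMM, 14 with median-of-ratios scaling and 13 at 4-fold, against 22. They had 2 depleted, against 1, with TMM, median-of-ratios scaling, reduced totals, TPM at both pseudocounts, FPKM and a 1.5-fold threshold. Depth limits COL4A5 and the lesser collagen IV and laminin chains, whose intervals are wide.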

Other observations

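Whether neighbours that share a start region usually had like ratios was looked at after the contrast of COL4A1 and COL4A2 had been seen. RefSeq (GRCh38.p14) starts gave 369 pairs of protein-coding genes that are transcribed away from each other, start at most 1000 bases apart and have at least 20 counts in each gene. The median absolute difference in log2 ratio within a pair was 1.09. COL4A1 and COL4A2 differed by 3.10, and 34 of the pairs (9.21%) differed by at least as much, themselves included. With at least 100 counts in each gene, 13 of 108 pairs (12.0%) did so, and the median was also 1.09. Differences between head-to-head neighbours were thus common in these libraries, with sampling noise of low counts included, and COL4A1 and COL4A2 were in the upper part of their range.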
